A study of Mus musculus with 10 samples.

Results

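The regenerating islet-derived (Reg) gene family of the mouse was followed in the pancreas of newborn mice that express IL-23. Its members were taken by symbol, and all 7 named members (Reg1, Reg2, Reg3a, Reg3b, Reg3d, Reg3g and Reg4) were found among the 24062 genes of the count tables. The question was how each member differed between mice expressing IL-23 and their controls, gene by gene and library by library, and which members did not follow Reg3b.

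RNA of whole pancreas was sequenced from 5 WT and 5 KSR23 libraries, all from C57BL/6 mice at postnatal day 5 (P5). KSR23 mice carry the R23 allele, an IL-23 p19 and p40 cassette in the ROSA26 locus, together with cre recombinase under the human keratin 14 promoter, so that IL-23 expression is directed to keratinocytes. The WT mice are described as control littermates, and no further allele or agent is given for either group in the sources used here. The study counts each library as 1 mouse, but the labels give only replicate numbers, so the p-values measure the spread between these libraries. Il23a, which encodes the p19 subunit of IL-23, had 1 to 9 counts per WT library and 21 to 48 per KSR23 library. Il22, the cytokine gene induced by IL-23 in lymphocytes, had 0 to 1 counts per WT library and 1 to 3 per KSR23 library, too few to compare at this depth.

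Reg proteins are small secreted proteins of the C-type lectin family. They were first described in regenerating pancreatic islets, and acinar cells of the exocrine pancreas secrete several of them. The Reg3 proteins are also made by the intestinal epithelium, where Reg3b and Reg3g bind bacteria and are classical targets of IL-22, a cytokine that signals through the Il22ra1 and Il10rb receptor chains and the transcription factor STAT3.

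In the GRCm38 assembly (GENCODE M21), 6 of the 7 members lie side by side on chromosome 6, within 98216 bases (chr6:78370657-78468872). Their order is Reg3b (chr6:78370657-78373466, + strand), Reg3d (chr6:78375874-78378865, - strand), Reg3a (chr6:78380709-78383827, + strand), Reg2 (chr6:78395623-78408106, + strand), Reg1 (chr6:78422711-78428667, + strand) and Reg3g (chr6:78466269-78468872, - strand). No protein-coding gene other than these members is annotated in the interval. Reg4 lies apart, at chr3:98222156-98236748 on the + strand. The nearest protein-coding genes beyond the cluster were almost silent in these libraries, with 4 to 34 counts for Ctnna2 and 0 to 2 counts for Gm20594.

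The members are similar but not near-identical in sequence. Over the coding sequence, Reg1 and Reg2 shared 78.7% of bases, Reg3b and Reg3g 75.9%, Reg3a and Reg3b 74.2%, and Reg3d and Reg3b 66.1%, while Reg4 shared 51.5% to 56.8% with the others. Every 75-base window of each member's longest coding transcript, the length of the reads, occurred in no other annotated gene (100% of windows for all 7), so reads without errors could be told apart between members.

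The upstream sequences of 4 members are shown, and their link to the levels of these genes was not tested. They come from the 250 bases before the RefSeq start (GRCm38.p6) and are written 5′ to 3′ on the strand of the gene. Bases that a GENCODE transcript includes as exon were cut from the windows of Reg3b and Reg1. Capitals mark matches, on either strand, to the STAT element TTCNNNGAA and to the motifs of PTF1, the acinar transcription factor (the E-box CACCTG and the TC-box TTTCCCA). The sequences are Reg3b at chr6:78370707-78370860, Reg3g at chr6:78468875-78469124, Reg3d at chr6:78378866-78379115 and Reg1 at chr6:78425733-78425929.
Reg3b: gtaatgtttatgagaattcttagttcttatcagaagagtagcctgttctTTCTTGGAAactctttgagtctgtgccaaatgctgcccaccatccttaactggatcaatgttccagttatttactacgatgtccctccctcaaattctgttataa
Reg3g: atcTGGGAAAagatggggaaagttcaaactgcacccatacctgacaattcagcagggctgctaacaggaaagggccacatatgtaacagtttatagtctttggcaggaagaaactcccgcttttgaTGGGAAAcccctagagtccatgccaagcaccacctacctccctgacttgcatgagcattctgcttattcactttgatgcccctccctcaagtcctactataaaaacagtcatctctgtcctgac
Reg3d: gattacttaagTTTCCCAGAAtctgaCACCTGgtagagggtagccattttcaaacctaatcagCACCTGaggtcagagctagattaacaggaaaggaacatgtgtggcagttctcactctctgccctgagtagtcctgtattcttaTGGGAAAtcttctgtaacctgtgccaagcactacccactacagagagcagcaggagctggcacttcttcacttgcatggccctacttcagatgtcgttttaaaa
Reg1: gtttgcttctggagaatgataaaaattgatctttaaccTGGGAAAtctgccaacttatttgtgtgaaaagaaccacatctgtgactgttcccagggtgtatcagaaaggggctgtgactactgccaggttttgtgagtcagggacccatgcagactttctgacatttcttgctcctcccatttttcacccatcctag

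Reg3b held 1 STAT element, TTCTTGGAA, which begins 129 bases before the start. Reg3d held another, TTCCCAGAA, which begins 238 bases before the start and overlaps a TC-box. These were 2 of the 7 members, and 7.02% of 32851 annotated promoter windows of the same length held the element. Over the whole windows, the E-box was found in 5 members (Reg2, Reg3a, Reg3b, Reg3d and Reg4) and in 17.2% of promoters, and the TC-box in 3 members (Reg1, Reg3d and Reg3g) and in 6.82% of promoters. The E-box of Reg3b begins 214 bases before the start, in the part cut from the sequence shown. The upstream windows of Reg3b and Reg3g were the most alike of all pairs, with 69.2% of bases shared, while the other pairs shared 50% to 60%. These matches describe the letters of the windows only.

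The WT libraries held 26830235 to 33189132 gene counts and the KSR23 libraries 16715976 to 57784136, with the fewest in KSR23 replicate 3. A floor of 3 counts corresponded to 0.0536 to 0.168 CPM (counts scaled to a common library total), which covers counting error only. The acinar markers were abundant in every library, with summed levels of 202157 to 225413 CPM in WT and 150793 to 185650 CPM in KSR23 libraries, and 8 of the 10 were lower and 1 higher in KSR23 mice. Duct markers summed to 352 to 410 CPM in WT and 472 to 517 CPM in KSR23 libraries, and 5 of 6 were higher in KSR23 mice. Islet markers summed to 8123 to 11383 CPM in WT and 5005 to 6307 CPM in KSR23 libraries, and 6 of 8 were lower and 1 higher. Over all genes tested, 16.2% were called higher and 14.8% lower in KSR23 mice (adjusted p under 0.05). The part of these marker shifts in the Reg results was not tested. In bulk tissue, fewer cells of a type and less RNA per cell cannot be told apart. The 10 intestinal epithelium markers summed to at most 1.37 CPM in WT libraries and to at most 1.76 CPM in 4 KSR23 libraries, while KSR23 replicate 2 reached 17.2 CPM. The 3 keratinocyte markers summed to 5.39 to 9.17 CPM in WT and 4.81 to 8.39 CPM in KSR23 libraries, with Krt5 at 0 counts in all 10 and none of the 2 tested markers called.

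WT replicates 1 and 2 stood apart from the other WT libraries in the genes followed here. Their Reg3b counts were 19731 and 21233, while WT replicates 3, 4 and 5 had 415, 150 and 127. Among all 13882 genes tested, 5 had both of these libraries more than 4-fold above the highest of WT replicates 3 to 5, and these were Reg2, Reg3a, Reg3b, Reg3g and Fgl1, a liver-type secreted protein gene of the fibrinogen family. Reg1 and Reg3d did not separate these libraries. Whether this signal arose in the tissue of those mice or from KSR23 material in those libraries cannot be told apart from the counts. The log2 FC of the tested members and the ratios to Reg3b are therefore given with and without these 2 libraries. This choice was made after their values were seen. Other results, such as shares of counts and profile distances to Reg3b, use all libraries unless stated.

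Of the 7 members, 6 were tested, and these 6 were called higher in KSR23 mice (edgeR, quasi-likelihood, with p-values adjusted by the Benjamini-Hochberg method over all genes and an adjusted p under 0.05). Of the 13882 genes tested, 31% were called, 16.2% as higher and 14.8% as lower in KSR23 mice. Reg4 had too few counts to be tested. In each of the 6, every KSR23 library lay above every WT library, as in 10.7% of the genes tested, and 19.4% had no overlap in either direction. The sizes differed: log2 FC was between 6.21 and 6.47 for Reg2, Reg3a, Reg3b and Reg3g, 2.37 for Reg3d and 0.66 for Reg1, beside a median of -0.01 over the genes tested. A called rise with a log2 FC over 6 occurred in 0.0432% of the genes tested, or 6 genes, of which 4 were these members.

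**Figure D1:**
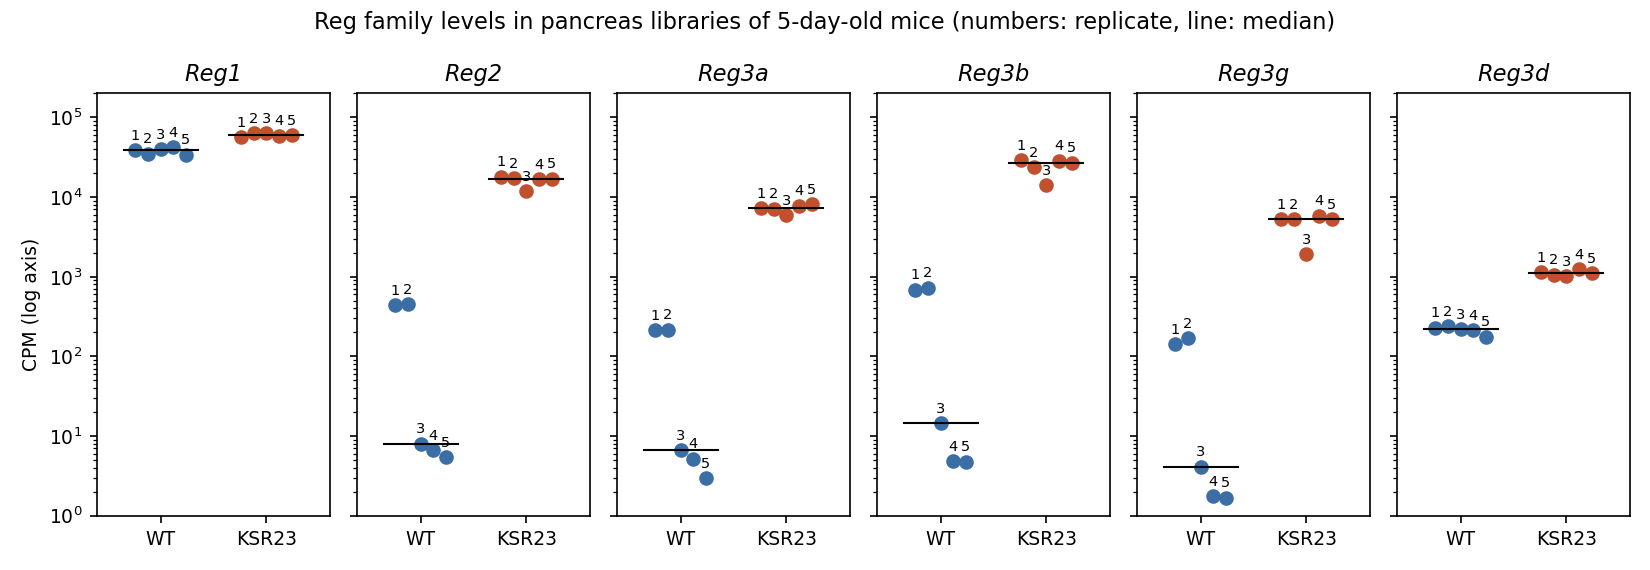
Level of the 6 tested Reg genes (CPM, log axis) in each of 5 WT and 5 KSR23 libraries, with replicate numbers beside the points and a line at the group median. In Reg2, Reg3a, Reg3b and Reg3g, WT replicates 1 and 2 lie far above WT replicates 3 to 5 and far below all KSR23 libraries, whereas the WT libraries of Reg1 and Reg3d lie together.

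Reg3b, which encodes a secreted lectin that binds bacteria, reached 692 and 729 CPM in WT replicates 1 and 2 and 14.6, 4.84 and 4.73 CPM in WT replicates 3 to 5. In KSR23 replicates 1 to 5 it reached 29258, 23586, 14214, 28582 and 27021 CPM. The lowest KSR23 library, replicate 3, was still 19.5-fold above the highest WT library. Over 5 libraries each, the mean ± SD was 289 ± 385 CPM in the WT and 24532 ± 6170 CPM in the KSR23 group, with a log2 FC of 6.41 (SE 1.18, adjusted p = 0.000468). The WT SD exceeded the WT mean, since the highest WT library held 154 times the lowest. Without WT replicates 1 and 2 the WT mean was 8.05 ± 5.65 CPM (n = 3) and the log2 FC was 11.58 (SE 0.497, adjusted p = 5.73e-10).

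Reg3g, whose protein is bactericidal for Gram-positive bacteria, was the lowest of the 4 strongly raised members. It reached 142 and 170 CPM in WT replicates 1 and 2 and 4.11, 1.74 and 1.68 CPM in WT replicates 3 to 5. Levels in KSR23 replicates 1 to 5 were 5298, 5301, 1930, 5809 and 5324 CPM. KSR23 replicate 3 stood well below the other 4 KSR23 libraries, and it remained 11.4-fold above the highest WT library. Reg3g rose with a log2 FC of 6.21 (SE 1.06, adjusted p = 0.000234), or 10.88 (SE 0.483, adjusted p = 8.44e-10) without WT replicates 1 and 2.

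Reg3a, a further secreted lectin of the Reg3 group, reached 213 and 215 CPM in WT replicates 1 and 2 and 6.67, 5.20 and 2.94 CPM in WT replicates 3 to 5. In KSR23 replicates 1 to 5 it reached 7287, 7123, 5965, 7798 and 8110 CPM. The KSR23 libraries lay close together, with a coefficient of variation of 11.3% against 25.2% for Reg3b and 33.4% for Reg3g. Reg3a rose with a log2 FC of 6.36 (SE 0.996, adjusted p = 9.74e-05), or 10.52 (SE 0.270, adjusted p = 1.74e-12) without WT replicates 1 and 2.

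Reg2, which is expressed in acinar cells and in islets and has the coding sequence closest to Reg1, nonetheless had the level pattern of Reg3b. It reached 441 and 454 CPM in WT replicates 1 and 2 and 8.01, 6.61 and 5.40 CPM in WT replicates 3 to 5. Levels in KSR23 replicates 1 to 5 were 18049, 17259, 11870, 16719 and 16974 CPM. Every KSR23 library was at least 26.2-fold above the highest WT library. The log2 FC was 6.47 (SE 1.09, adjusted p = 0.000212), or 11.24 (SE 0.248, adjusted p = 3.72e-13) without WT replicates 1 and 2.

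Reg3d rose less and did not separate the WT libraries. Its gene lies between Reg3b and Reg3a, and the function of its product is less well known. It reached 228, 239, 220, 214 and 176 CPM in WT replicates 1 to 5 and 1138, 1066, 1024, 1236 and 1110 CPM in KSR23 replicates 1 to 5. Both groups were tight, with coefficients of variation of 11.2% in WT and 7.22% in KSR23 mice, and every KSR23 library was at least 4.28-fold above the highest WT library. The log2 FC was 2.37 (SE 0.0884, adjusted p = 8.84e-13), the smallest adjusted p of the 6 members, and it was 2.46 without WT replicates 1 and 2. Of the genes tested, 0.576% had a called rise with a log2 FC over 2.

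Reg1, which encodes the founding protein of the family, abundant in pancreatic juice, was high in both groups. It reached 39098, 34866, 40156, 42537 and 34046 CPM in WT replicates 1 to 5 and 56725, 63297, 62929, 58693 and 59416 CPM in KSR23 replicates 1 to 5. The groups did not overlap, although the lowest KSR23 library was only 1.33-fold above the highest WT library. The mean rose from 38141 ± 3599 to 60212 ± 2828 CPM (SD, n = 5 each), a log2 FC of 0.66 (SE 0.106, adjusted p = 0.00013), and the value without WT replicates 1 and 2 was 0.63. KSR23 replicate 3, which was lowest for Reg2, Reg3a, Reg3b, Reg3d and Reg3g among the KSR23 libraries, was among the highest for Reg1.

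Reg4, a member expressed mainly in the intestine and stomach, was near 0 in the pancreas of both groups. WT replicates 1 to 5 had 0, 0, 2, 1 and 1 counts, and KSR23 replicates 1 to 5 had 5, 0, 2, 0 and 5 counts. The groups overlapped (two-sided exact permutation test of log2 CPM, p = 0.413), and a difference was not detectable at this depth.

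**Figure D2:**
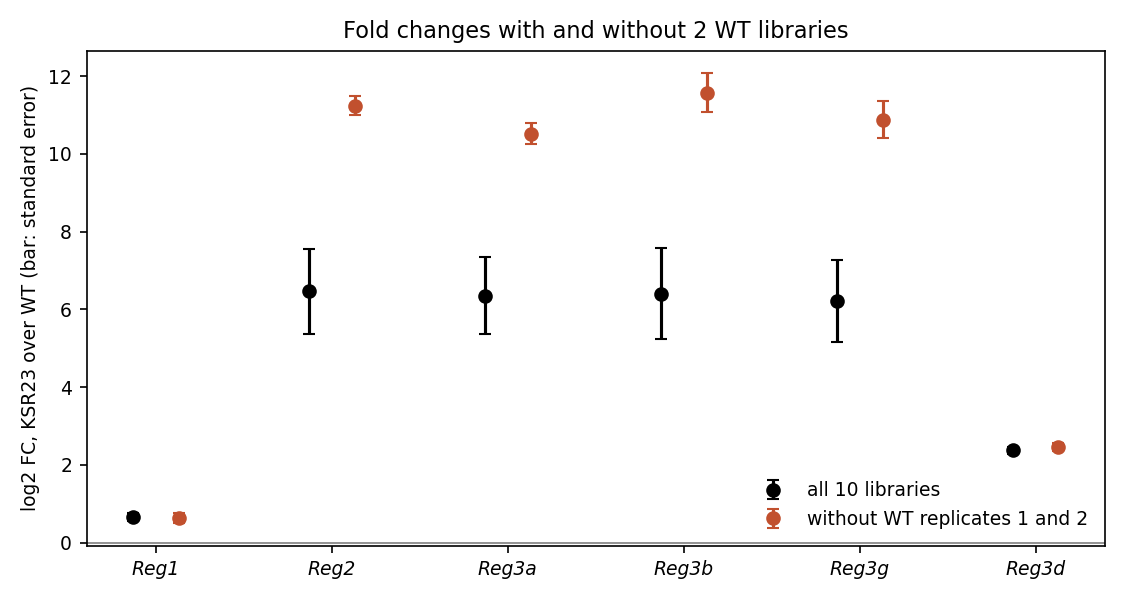
Log2 FC of KSR23 over WT for the 6 tested Reg genes, fitted on all 10 libraries (black) and without WT replicates 1 and 2 (red), with bars of 1 standard error. The values for Reg2, Reg3a, Reg3b and Reg3g move from 6.21 to 6.47 up to 10.52 to 11.58, while those for Reg1 and Reg3d stay near 0.66 and 2.37.

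Set against the KSR23 mean, WT replicates 1 and 2 carried nearly the same percentage of each strongly raised member. The values were 2.73% and 2.81% for Reg2, 2.94% and 2.96% for Reg3a, 2.82% and 2.97% for Reg3b, and 3.0% and 3.58% for Reg3g. WT replicates 3 to 5 carried 0.0193% to 0.0920% of the KSR23 mean for the same genes. Reg1 stood at 56.5% to 70.6% and Reg3d at 15.8% to 21.5% over all 5 WT libraries, with no gap between libraries. Fgl1 showed the gap, with 3.36% and 3.06% in WT replicates 1 and 2 and 0.178% to 0.318% in the others. Lrg1, Gkn3, Lcn2 and C4b had gaps in the same direction that were smaller as a ratio. They were 2.78% and 2.74% against 0.643% to 0.939% for Lrg1, and 3.47% and 2.78% against 0.738% to 1.30% for Gkn3. For Lcn2 they were 4.86% and 5.21% against 1.77% to 2.86%, and for C4b 6.36% and 5.00% against 3.31% to 3.84%. Fgl1 and these genes were picked for a profile like that of Reg3b over all libraries, so a gap in them partly follows from that choice.

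**Figure D3:**
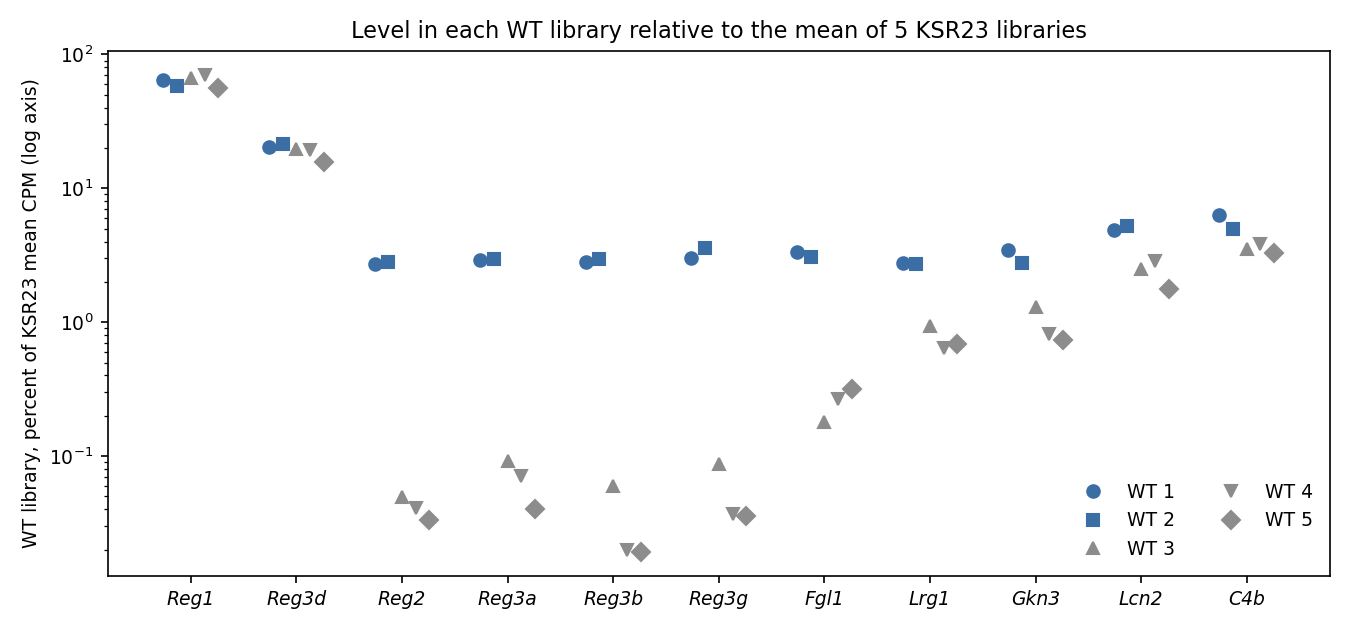
Level in each WT library as a percentage of the mean of 5 KSR23 libraries (log axis), for the 6 tested Reg genes and the 5 other genes nearest to Reg3b in profile. WT replicates 1 and 2 (blue) lie at 2.73% to 3.58% for Reg2, Reg3a, Reg3b and Reg3g, where WT replicates 3 to 5 (grey) lie below 0.1%.

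Together, the 7 Reg genes held 3.89%, 3.67%, 3.85%, 3.99% and 3.42% of all gene counts in WT replicates 1 to 5 and 12.7%, 11.9%, 10.5%, 12.3% and 11.4% in KSR23 replicates 1 to 5. The means, 3.76% ± 0.223 and 11.8% ± 0.864 (SD, n = 5 each), differed by 8.0 percentage points (exact permutation test, two-sided, p = 0.00794, the lowest possible for 5 libraries against 5). Taken over all alignments, those given to no gene included, the difference was 4.92 points, and alignments that were not unique made up 49.6% to 53.7% in WT and 38.5% to 42.5% in KSR23 libraries. Since Reg1 is so abundant, its modest fold change added as much to this share as the large one of Reg3b. Reg1 gave 31.7% of the added share (2.53 points), Reg3b 31.3% (2.50 points), Reg2 20.6% (1.65 points), Reg3a 9.24%, Reg3g 6.00% and Reg3d 1.18%.

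The mix within the family changed. Reg1 held 95.1% to 99.5% of the Reg family counts in WT libraries and 48.2% to 64.3% in KSR23 libraries. Its mean share fell from 97.8% ± 2.20 to 53.2% ± 6.53 (SD, n = 5 each; two-sided exact permutation test, p = 0.00794), and this value does not depend on library scaling. In KSR23 libraries Reg3b held 21.3% ± 4.19 of the family counts, Reg2 14.1% ± 1.21, Reg3a 6.35% ± 0.354 and Reg3g 4.08% ± 1.19. Reg3d held 0.554% ± 0.0601 in WT and 0.980% ± 0.0616 in KSR23 libraries.

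**Figure D4:**
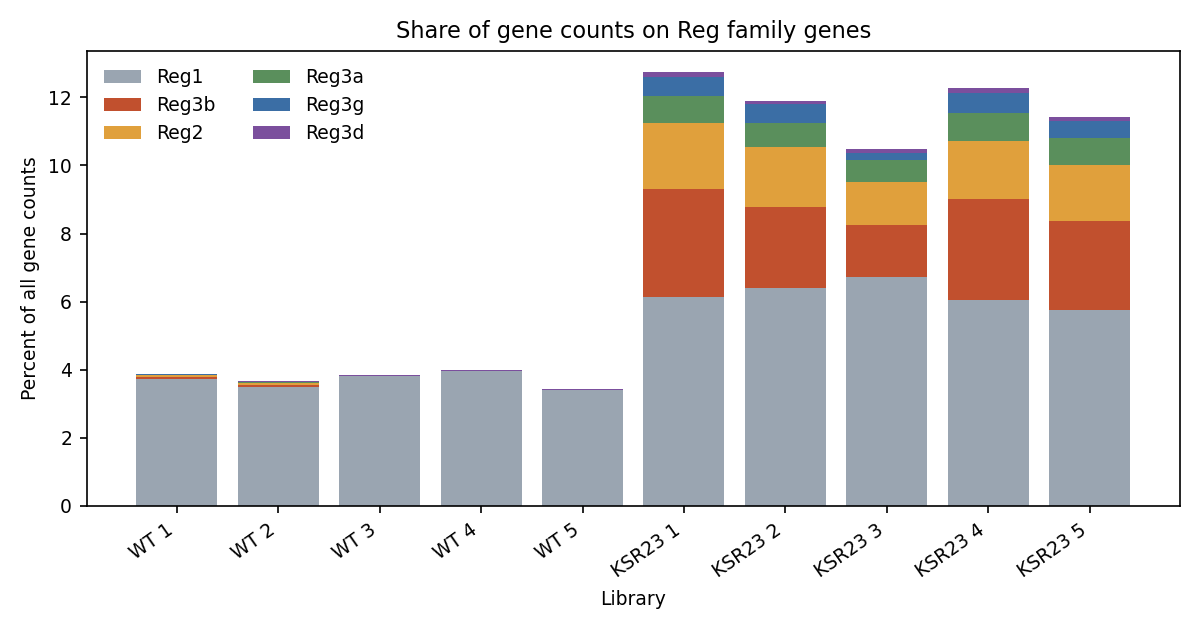
Percentage of all gene counts on each Reg gene in the 10 libraries, as stacked bars from 0. Reg1 makes up nearly the whole bar in WT libraries, and the KSR23 bars reach 10.5% to 12.7% with Reg3b and Reg2 as the next largest parts.

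Levels between genes were compared as CPM per kilobase of the longest coding transcript. In KSR23 libraries the order was Reg1 (66606 ± 3129), Reg3b (31331 ± 7880), Reg2 (23172 ± 3520), Reg3a (8796 ± 998), Reg3g (6138 ± 2051) and Reg3d (1426 ± 103 CPM per kilobase, SD, n = 5). Each gene exceeded the next in 5 of 5 libraries, although the ranges overlapped for Reg3b and Reg2 and for Reg3a and Reg3g. In WT libraries Reg1 stood alone at 42191 ± 3981 CPM per kilobase. Reg3b, Reg3d, Reg2, Reg3a and Reg3g followed with means of 369, 275, 262, 107 and 82.7 CPM per kilobase, and the ranges of all neighbours below Reg1 overlapped. Reg3b exceeded Reg3d only in WT replicates 1 and 2, so the order of means there rests on those libraries. Reg3d was thus lowest of the 6 in KSR23 mice and above all of Reg2, Reg3a, Reg3b and Reg3g in 3 of 5 WT libraries.

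To ask which members did not follow Reg3b, the log2 ratio of each member's counts to Reg3b was compared within each library, with 2 counts added to each. Groups were compared by the mean of these log2 values, whereas the log2 FC given above follows the mean level of each group. By the mean of log2 CPM per library, the rise was 9.06 for Reg3b, 2.38 for Reg3d and 0.66 for Reg1. The ratio of Reg1 to Reg3b was 5.82, 5.58, 11.42, 13.08 and 12.79 in WT replicates 1 to 5 and 0.96, 1.42, 2.15, 1.04 and 1.14 in KSR23 replicates 1 to 5, a difference of -8.40 (two-sided exact permutation test, p = 0.00794), or -11.09 without WT replicates 1 and 2 (exact permutation test, p = 0.0357, the lowest possible for 3 libraries against 5). The ratio of Reg3d to Reg3b was -1.60, -1.61, 3.91, 5.45 and 5.19 in WT and -4.68, -4.47, -3.79, -4.53 and -4.61 in KSR23 replicates 1 to 5, a difference of -6.68 (exact permutation test, p = 0.00794), or -9.27 (p = 0.0357 by the same test) without those 2 libraries. With WT replicate 1, 2, 4 or 5 left out alone, these differences were -9.38, -9.44, -7.56 and -7.64 for Reg1 and -7.65, -7.65, -5.89 and -5.95 for Reg3d. The groups did not overlap in either ratio, so Reg1 and Reg3d rose less than Reg3b. The ratio of Reg4 to Reg3b also differed by -8.86 (exact permutation test, p = 0.00794), or -11.82 without WT replicates 1 and 2, but with 0 to 5 Reg4 counts it was set by Reg3b.

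The other 3 members kept closer to Reg3b. The ratio of Reg2 to Reg3b ranged from -0.86 to 0.45 in WT and from -0.77 to -0.26 in KSR23 libraries, with a difference of -0.26 (exact permutation test, p = 0.381). For Reg3a the ranges were -1.76 to 0.10 and -2.01 to -1.25, with a difference of -0.69 (exact permutation test, p = 0.0714). For Reg3g they were -2.29 to -1.44 and -2.88 to -2.15, with a difference of -0.61 (exact permutation test, p = 0.0159). These p-values are unadjusted, and 6 ratios were compared. The differences were -0.50 (p = 0.214), -1.16 (p = 0.0357) and -0.86 (p = 0.0357) by the exact permutation test without WT replicates 1 and 2. Without those libraries the groups did not overlap for Reg3a and Reg3g. Within WT replicates 1 and 2, the ratios of Reg2, Reg3a and Reg3g to Reg3b (-0.65 and -0.68, -1.70 and -1.76, -2.29 and -2.10) lay inside the KSR23 range, except for the ratio of Reg3g in WT replicate 2, which was just above it.

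**Figure D5:**
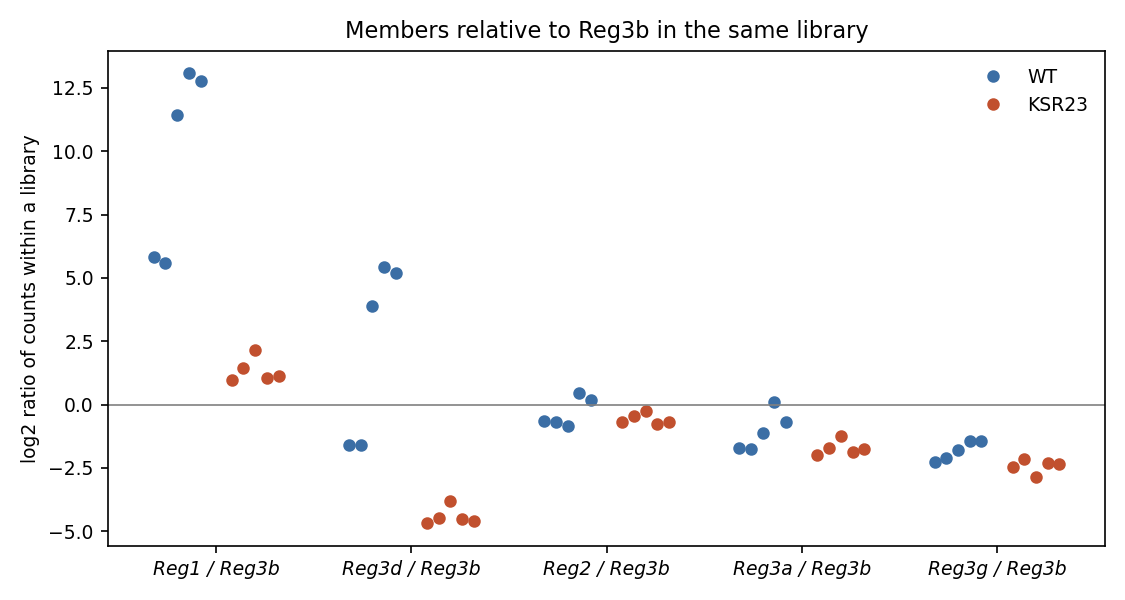
Log2 ratio of the counts of each Reg gene to those of Reg3b in the same library, with WT in blue and KSR23 in red and replicates 1 to 5 from left to right. Reg1 and Reg3d separate the groups, with differences of -8.40 and -6.68, while the groups overlap for Reg2, Reg3a and Reg3g. For Reg3a and Reg3g, WT replicates 3 to 5 lie above every KSR23 library.

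Over the 10 libraries, the profiles nearest to that of Reg3b (root mean square difference of centred log2 CPM) were those of its own family, Reg2 at 0.415, Reg3g at 0.423 and Reg3a at 0.625. Reg3d, at 4.05, and Reg1, at 4.83, were far from it. Outside the family the nearest were Fgl1 at 1.59, Lrg1 (a secreted leucine-rich glycoprotein of the acute phase) at 2.28, Gkn3 (a gastrokine) at 2.36, Lcn2 (the siderophore-binding lipocalin) at 2.92 and the complement gene C4b at 3.12. Since the profiles share 2 groups, closeness here describes these libraries. The 5 genes outside the family were picked by this closeness in the same libraries, so their rises and p-values partly follow from that choice. Fgl1 rose from 6.22 ± 7.03 to 433 ± 148 CPM (SD, n = 5 each), with a log2 FC of 6.12 (SE 0.592, adjusted p = 3.34e-07), or 8.62 without WT replicates 1 and 2. Lrg1, Gkn3, Lcn2 and C4b rose by 6.01, 5.78, 4.86 and 4.50 on the log2 scale, each with an adjusted p of 8.91e-09 or less, and without WT replicates 1 and 2 the values of Lrg1 and Gkn3 were 7.05 and 6.72. The 7 liver markers summed to 7.74 to 12.7 CPM in WT and 21.0 to 30.2 CPM in KSR23 libraries. Of the 3 tested, 1 was called higher and 1 lower, beside 16.2% higher and 14.8% lower over all genes tested. F2 was higher in KSR23 mice (5.37 ± 1.14 against 22.1 ± 2.29 CPM), and Alb was lower (4.52 ± 1.16 against 2.48 ± 0.988 CPM). The part of the liver markers in these rises was not tested.

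Genes of the IL-22 and STAT3 pathway moved in both directions. Of 35 listed genes 24 were tested, of which 10 rose, 2 fell and 12 did not pass, with a median log2 FC of 0.26. Over all genes tested, 16.2% rose and 14.8% fell, with a median of -0.01. Socs3, the STAT3-induced feedback inhibitor, rose most, from 10.2 ± 1.25 to 63.8 ± 18.0 CPM (log2 FC 2.65, SE 0.153, adjusted p = 3.80e-10). Bcl3, a nuclear cofactor of NF-kB, and Osmr, the oncostatin M receptor, rose with log2 FC of 2.27 and 1.47. Stat3 itself rose from 53.1 ± 5.21 to 115 ± 10.9 CPM (log2 FC 1.12, adjusted p = 7.31e-09). The genes that fell were Lifr, the LIF receptor (log2 FC -0.53), and Ptpn11, the phosphatase SHP2 (log2 FC -0.36). Of the IL-22 receptor chains, Il10rb rose slightly (log2 FC 0.32, adjusted p = 0.00168), while Il22ra1 had a log2 FC of -0.44 that did not pass (adjusted p = 0.0768). Without WT replicates 1 and 2, 10 genes of this list were called in place of 12.

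Of 25 epithelial defence genes 15 were tested, of which 11 rose, 1 fell and 3 did not pass. The median log2 FC was 1.54. Over all genes tested, 16.2% were higher and 14.8% lower. The filter left out genes with under 5 counts in any library, whatever their level in the other group. With at least 1 count in any library as the filter, 16 genes of this list were called in place of 12. Besides Fgl1, Lrg1 and Lcn2, the calprotectin subunits S100a9 and S100a8 rose by 2.48 and 2.38 on the log2 scale (adjusted p-values 0.000788 and 0.00105). KSR23 replicate 3, the library lowest for Reg3b, had 76.4 CPM of S100a8 against 9.90 to 17.6 CPM in the other KSR23 libraries, and without it the log2 FC of S100a9 and S100a8 were 1.54 and 1.47, both still called. Leukocyte markers summed to 82.8 to 93.2 CPM in WT libraries, 94.1 to 149.7 CPM in 4 KSR23 libraries and 179.6 CPM in KSR23 replicate 3, and 4 of the 7 tested were higher and 1 lower in KSR23 mice. Their part in the rise of S100a8 and S100a9 and in the lower Reg2, Reg3b and Reg3g levels of this library was not tested. Ang, the ribonuclease angiogenin, fell (log2 FC -1.13).

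Of 23 genes associated with acinar injury 20 were tested, of which 8 rose, 3 fell and 9 did not pass, with a median log2 FC of 0.40, again beside 16.2% and 14.8% over all genes. Clu, a secreted chaperone, and the immediate early genes Egr1 and Fos rose with log2 FC of 1.37, 1.30 and 1.23. The metallothioneins Mt1 and Mt2 fell with log2 FC of -1.90 and -1.79, and the trefoil factor Tff2 with a log2 FC of -0.90. Extl3, reported as a receptor for Reg proteins, averaged 65.8 ± 4.69 CPM in WT and 56.9 ± 7.14 CPM in KSR23 mice, and its log2 FC of -0.21 did not pass (SE 0.0835, adjusted p = 0.0666). With libraries scaled by their totals without the Reg genes, the sign of the Extl3 difference turned.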

How the data were processed

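From 100 pg of pancreas RNA per library, the authors made oligo-dT primed cDNA with the SMART-Seq v4 kit (15 PCR cycles) and Nextera XT libraries (12 PCR cycles), which were sequenced as single-end reads of 75 bases. Reads copied by PCR could not be told apart, so counting error understates the error. According to the methods and the submitters' processing notes, reads were aligned to mm10 with TopHat2 2.1.0 and counted on protein-coding genes with HTSeq 0.6.1p1 by strict intersection. The annotation and strand setting are not given in the sources used here. The deposited values are raw counts per gene, 1 file per library. The 5 tallies of alignments given to no gene were kept apart. Alignments that were not unique made up 49.6% to 53.7% of alignments in WT and 38.5% to 42.5% in KSR23 libraries, and they went to no gene.

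The filter of the study's methods, a minimum of 5 counts in each library, left 13882 of 24062 genes. Counts were scaled by TMM in edgeR 4.0.16 (R 4.3.3), CPM uses these scaled library sizes, and log2 CPM a prior count of 2. The quasi-likelihood F test of edgeR replaced the authors' likelihood ratio test, and genes with an adjusted p under 0.05 were called. Standard errors of log2 FC were derived from F. Single values were compared with two-sided exact permutation tests over 252 splits. The fit was tested on simulated counts first. Libraries of the same group differed by a chi-square of 11.4 or more per degree of freedom, so none was a copy of another.

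The members and gene lists were chosen with earlier results of these data known. Named genes were all Reg members, Extl3, the 5 called genes with the largest change in each list with any member against its list's majority, and the 5 other genes nearest to Reg3b in profile. A single gene so named is not reported here. Il23a, Il22, Il10rb, Il22ra1, Alb, F2, Krt5 and the neighbours of the cluster were named outside this rule. Alternatives tried were RLE scaling, library totals with and without the Reg genes, other filters, robust dispersion, DESeq2 1.42.0, the likelihood ratio test, a replicate block, and each library left out in turn. GENCODE M21 gave positions and transcripts. Identities were computed on global alignments with Biopython 1.88.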

Additional observations from a re-analysis of the deposited data

Results flagged for a closer look

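KSR23 replicate 3 lay far from the other 4 KSR23 libraries in 2 members. Its Reg2 level was 11870 CPM against 16719 to 18049 CPM, and its Reg3g level was 1930 CPM against 5298 to 5809 CPM. In all, 16 groups of 5 libraries were examined in this way, in which chance alone would flag about 0.8. This library had the fewest gene counts, 16715976.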

How the results depend on the processing

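All 6 tested Reg genes were called in each of the 20 alternatives. Over these, the log2 FC ranged from 0.61 to 0.88 for Reg1, 2.30 to 2.59 for Reg3d, 6.14 to 11.24 for Reg2, 6.04 to 10.52 for Reg3a, 6.08 to 11.58 for Reg3b and 5.89 to 10.88 for Reg3g, with the upper ends of the last 4 reached without WT replicates 1 and 2 and those of Reg1 and Reg3d with library totals that leave out the Reg genes. Without WT replicate 1 alone these 4 were 6.74 to 7.09, and without WT replicate 2 alone 6.99 to 7.13. The highest adjusted p was 0.0241, for Reg3b with a robust dispersion estimate. The difference in the log2 ratio of Reg3a to Reg3b ranged from -0.87 to -0.41 with 1 library left out, and its exact permutation p was 0.0317 without WT replicate 2 and 0.0476 without KSR23 replicate 3. Without WT replicates 1 and 2 it was -1.16. Among named genes outside the family, the Extl3 value became 0.012 (adjusted p = 0.935) with library totals that leave out the Reg genes, under which Ptpn11 lost its call (-0.14, adjusted p = 0.254) and the median over all genes was 0.21. Extl3 passed without WT replicate 1 (-0.24, adjusted p = 0.0415) and without KSR23 replicate 1 (-0.28, adjusted p = 0.0148). All genes called numbered 3321 to 5836 (4299 in the analysis reported), of which 52.3% were higher as reported, 72.6% with library totals alone and 87.8% with totals without the Reg genes. Between libraries of equal replicate number, deviations from the group mean correlated little (-0.111 to 0.066), which cannot exclude that some mice were paired. The replicate block gave 3749 called genes and log2 FC of 9.08, 8.51, 9.28 and 8.32 for Reg2, Reg3a, Reg3b and Reg3g, and the cause of the shift was not tested.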
